A study of Homo sapiens with 16 samples.

Results

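Pepsin-trypsin digested gliadin (PT-G) was compared with pepsin and trypsin that had been carried through the same digestion with no substrate (PT). Both are protease preparations, so the difference between them is the part of a PT-G response that the design assigns to the gliadin peptides. The comparison used 8 of the 16 single-colour arrays of the series, 4 for PT-G and 4 for PT, with the 4 unstimulated arrays (MED-CTL) as the reference for how far either digest moved a gene. The remaining arrays came from cells given a synthetic gliadin peptide. Unless stated otherwise, the p-values and intervals below come from a fit of all 16 arrays. The peptide arrays therefore add to the estimate of spread, but their own response is not described here. Caco-2 cells, a human colon carcinoma line used as a model of the intestinal epithelium, were stimulated undifferentiated for 6 h in medium with little serum, and cells of every group were lifted with trypsin-EDTA. The replicates were separate experiments on cells a passage or so apart. They are cultures of 1 tumour line and hold no immune or stromal cells of a mucosa. The proteases were heat-inactivated according to the study's methods, and the concentration of PT-G is not given in the sources used here.

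Gliadin is the alcohol-soluble fraction of wheat gluten. Its long proline-rich and glutamine-rich stretches resist gastric and pancreatic proteases, so large peptides reach the small intestine. In coeliac disease some of them, deamidated by tissue transglutaminase, are presented to CD4+ T cells. Others have been linked to innate effects on the epithelium: stress and interleukin-15 signalling, slowed endosome maturation with prolonged EGF receptor signalling, oxidative stress, actin rearrangement and looser tight junctions. The genes below are grouped by those functions. Trypsin itself signals in epithelium by cleaving protease-activated receptors, and immediate early genes answer such signals within the first hours.

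Of 41000 non-control probes, 25053 were well above background on all 8 arrays and 25035 were tested. The other 18 had too few spots free of an outlier mark. The epithelial label held: 9 of 10 epithelial markers were measured, all but CDX1, and the leukocyte genes PTPRC, CD3D and MS4A1 were not well above background. PT and PT-G of the same replicate number carried the same code in the names of the scanner output, called a run here although what the code marks is not given, and in replicates 1, 2 and 4 they shared a slide. In replicate 3 they did not, and PT-G replicate 3 stood apart. Its log2 signals differed from those of PT replicate 3 with an SD of 0.73 over probes, against 0.24, 0.15 and 0.31 in replicates 1, 2 and 4. In replicate 3, 238 probes differed by more than 3 on the log2 scale and all were lower in PT-G. Of these, 219 were also more than 3 lower in MED-CTL replicate 3, which lay on the slide of PT-G replicate 3. Values are therefore given for each replicate number, and also with the run as a block (the fit then compares PT-G and PT within each run) or without PT-G replicate 3 where these differ.

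**Figure D1:**
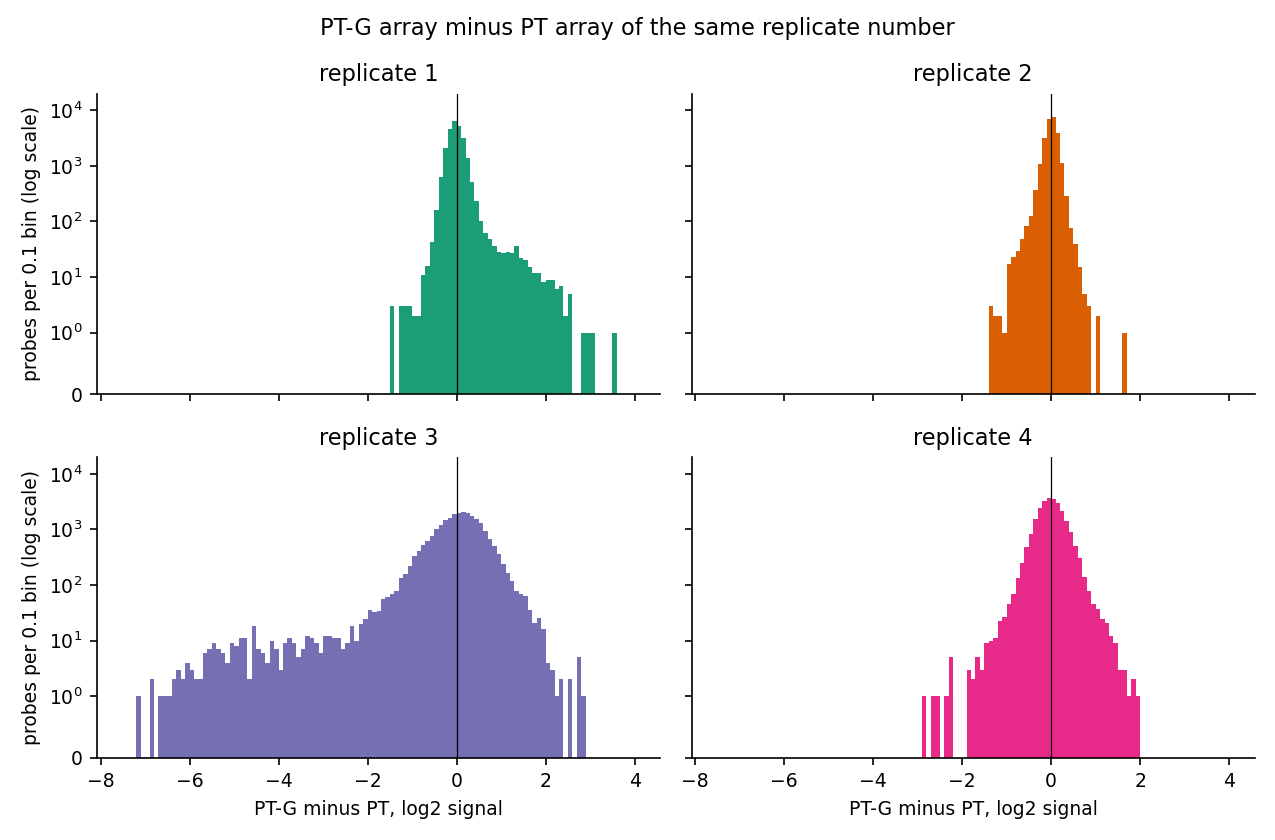
The x axis is the log2 signal of the PT-G array minus that of the PT array with the same replicate number, and the y axis is the number of the 25035 tested probes in each bin on a log scale, with 1 panel per replicate number. The medians lie between -0.02 and 0.07, and the long left tail of replicate 3 holds the 238 probes that were more than 3 lower in PT-G.

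No gene differed between PT-G and PT at the thresholds used. In a limma fit of all 16 arrays, 0 of 25035 probes had a nominal p under 0.01, the threshold of the study (percent called 0), and 0 passed Benjamini-Hochberg adjustment at 0.05. At a nominal p under 0.05 there were 46 probes, or 0.184%. Evenly spread p-values would put 1% of probes under 0.01, so the count of this fit, and that of the fit with a block below, lay under that share. The median of PT-G minus PT was 0.01 on the log2 scale, the median absolute difference was 0.10, and 98.4% of probes differed by less than 0.5. In 138 probes the mean difference passed 1 on the log2 scale, all of them lower under PT-G, and in all 138 PT-G replicate 3 had the lowest value of the 8 arrays. Without PT-G replicate 3 there were 2 probes at a nominal p under 0.01.

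The size of effect that these arrays leave room for was read from the 95% intervals. For 14239 probes, 56.9% of those tested, the whole interval lay within 1.5-fold in either direction, and for 22891, or 91.4%, it lay within 2-fold. Each interval is for 1 probe, with no allowance for the number of probes. With a Bonferroni allowance over all probes tested, 1929 lay within 2-fold. The median interval reached 0.43 on the log2 scale to either side of the difference, which is 1.35-fold. The scanner's processed signal in place of the deposited values gave 0.51, with 42.3% of probes within 1.5-fold. With the run as a block the deposited values gave shorter intervals, at a median of 0.27 to either side, and 84.0% of probes lay within 1.5-fold. That fit gave 35 probes at a nominal p under 0.01 (0.14% of those tested), 32 higher and 3 lower under PT-G, and again 0 after adjustment, with a smallest adjusted p of 0.826. A block by replicate number, which joins the same PT and PT-G arrays but takes MED-CTL replicates 1 and 2 the other way round, gave 13 probes, 11 higher and 2 lower. With only the PT and PT-G arrays that block gave 7, 1 higher and 6 lower, so the balance of directions depended on the arrays in the fit. For 60 probes (0.24%) every PT-G array lay above every PT array, and for 31 (0.124%) every PT-G array lay below. PT-G was above PT under all 4 replicate numbers for 3.78% of probes and below PT under all 4 for 4.23%. Split at the quartiles of mean level, 64.9% of the dimmest and 63.0% of the brightest probes lay within 1.5-fold, against 48.2% and 51.5% of those in between. The values are without background correction, so for the dimmest quartile, from 6.43 to 8.32 on the log2 scale, the bound is on signal and need not hold for RNA.

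The genes that both digests moved give the scale of that bound. The mean of PT and PT-G against MED-CTL passed an adjusted p of 0.05 in limma for 613 probes (2.45% of those tested), 357 higher and 256 lower. The contrast is orthogonal to PT-G minus PT but shares its estimate of spread, so probes with little spread were favoured, and their closer bound than over all probes is in part fixed by that choice. Over the 613 probes PT-G minus PT ranged from -0.27 to 0.41 with a median of 0.03, 0 had a nominal p under 0.01 and 4 a nominal p under 0.05, and 509 (83.0%) were bounded within 1.5-fold. As a share of the response of the same probe to both digests, the absolute difference between PT-G and PT had a median of 11.9%, and the largest was 61.2%.

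**Figure D2:**
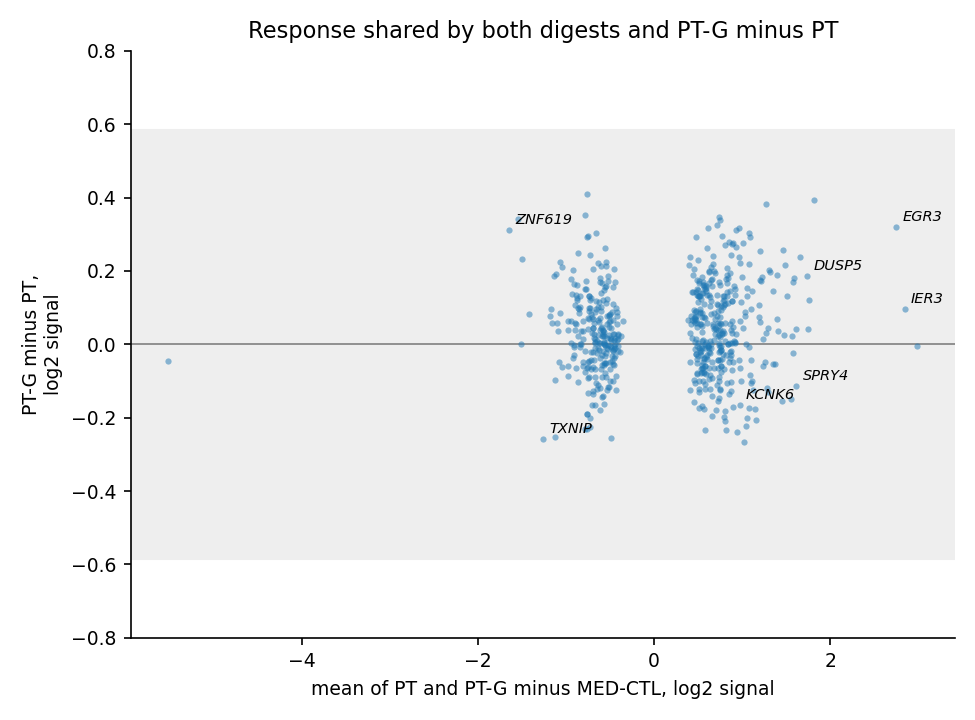
Each point is 1 of the 613 probes that both digests moved, with the mean of PT and PT-G minus MED-CTL on the x axis and PT-G minus PT on the y axis, both in log2 signal; the axes have different scales and shading marks 1.5-fold in either direction. The differences between PT-G and PT lie between -0.27 and 0.41, while the shared response reaches 2.99 upwards and -5.52 downwards, the latter for a probe with no gene name here.

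Immediate early transcription factors are the genes that growth factor and stress signals switch on first. Of 25 tested, 11 rose under both digests together at an adjusted p under 0.05, against 2.45% of all probes called in either direction. None differed between PT-G and PT at a nominal p under 0.05. Over all probes 0.184% did, so a list of this size with no such member was likely whatever its function. The same shares stand behind the counts of the lists below. IER3, an early gene that modulates cell survival, stood at 14.24, 14.17, 14.34 and 14.62 under PT and at 14.19, 14.44, 14.34 and 14.78 under PT-G on the log2 scale, against a MED-CTL mean of 11.54 ± 0.43 (SD, n = 4). All 8 digest arrays were far above the control, and the PT and PT-G values interleaved. PT-G minus PT was 0.10 (95% interval -0.41 to 0.60), or 3.35% of the response that IER3 showed to both digests.

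EGR3, a zinc finger factor of the early growth response family, was at 8.92, 9.13, 9.03 and 9.78 under PT and at 8.69, 9.45, 10.19 and 9.80 under PT-G, with MED-CTL at 6.62 ± 0.54. The groups overlapped and the highest PT-G value was that of replicate 3. The difference was 0.32 (-0.39 to 1.03), and 0.10 without PT-G replicate 3. EGR1 differed by 2.18 in replicate 3 and by -0.59, 0.05 and -0.24 in replicates 1, 2 and 4, so its mean difference of 0.35 turned to -0.07 without that array. FOSL1, a partner of JUN in the AP-1 dimer, was the closer match at 10.06 ± 0.25 under PT and 10.10 ± 0.48 under PT-G.

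KLF4, a factor of post-mitotic epithelial cells, had the largest difference of the list. It was at 9.78, 9.85, 8.93 and 8.55 under PT and at 9.60, 10.41, 9.54 and 9.29 under PT-G, so that PT-G was higher in replicates 2, 3 and 4 and lower in replicate 1 while the groups overlapped widely. The difference was 0.44 (-0.29 to 1.16), and 0.08 to 0.79 with the run as a block. Across the list 22 of 25 genes had a difference above 0, with a median of 0.16, beside 53.8% and 0.01 over all probes. JUN was the lowest at -0.15. The median of the list was -0.15, 0.24, 0.54 and -0.05 in replicates 1 to 4, so its sign differed between replicate numbers, and 2 of the 25 genes were higher under PT-G in all 4. Without PT-G replicate 3 the list median was 0.13, with 21 of 25 genes above 0. In the 3 pairs that share a slide it was 0.04. Intervals were wide here: 7 of 25 lay within 1.5-fold and 16 within 2-fold, and with the run as a block 13 lay within 1.5-fold.

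**Figure D3:**
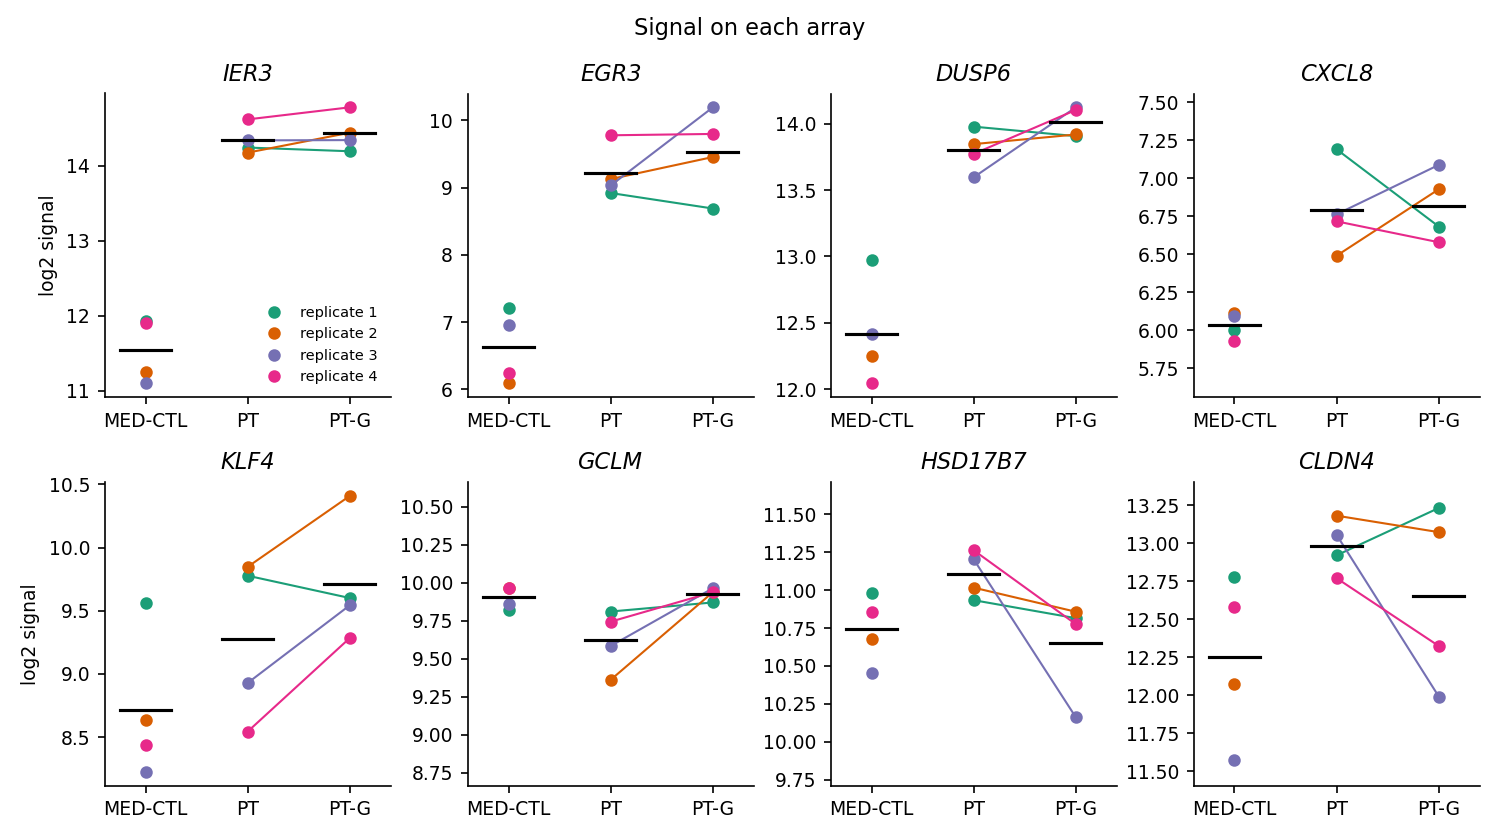
Points are log2 signals on single arrays of MED-CTL, PT and PT-G for 8 genes, coloured by replicate number, with lines joining PT and PT-G of the same number and black bars at the means of 4; each panel has its own y axis. IER3, EGR3, DUSP6 and CXCL8 lie well above MED-CTL under both digests with PT and PT-G interleaved, and GCLM and HSD17B7 are the 2 genes shown whose PT and PT-G values do not overlap.

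The MAPK feedback inhibitors, phosphatases and adaptors that damp ERK signalling, showed the same picture with shorter intervals. Both digests raised 11 of 18, none differed between PT-G and PT at a nominal p under 0.05, and 11 were bounded within 1.5-fold and all 18 within 2-fold. DUSP6, the cytoplasmic ERK phosphatase, was at 13.98, 13.85, 13.60 and 13.77 under PT and at 13.91, 13.92, 14.12 and 14.10 under PT-G. The PT-G array was higher in replicates 2, 3 and 4, and the groups overlapped. The difference was 0.21 (-0.30 to 0.73), that of the nuclear ERK phosphatase DUSP5 was 0.19 (-0.21 to 0.58), and that of SPRY4, an inhibitor upstream of ERK, was -0.11 (-0.53 to 0.31).

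The EGF receptor itself was at 10.43 ± 0.27 under PT and 10.55 ± 0.36 under PT-G, a difference of 0.12 (-0.39 to 0.64). Its ligand HBEGF, which both digests raised, was bounded more closely by the probe read here, at -0.07 (-0.37 to 0.23). The other tested probe of HBEGF gave -0.17 (-0.77 to 0.42). Of 11 receptors, ligands and adaptors of this system, 6 lay within 1.5-fold and 10 within 2-fold. EREG was the exception, and EGF, TGFA, BTC and ERBB4 were not well above background on all 8 arrays, so no bound applies to them.

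For NF-kB, the factor behind much of the inflammatory response of epithelium, 26 factors, inhibitors and targets were tested. Both digests raised 8 of them and 0 differed between PT-G and PT at a nominal p under 0.05. CXCL8, the neutrophil chemokine interleukin-8, was at 7.19, 6.49, 6.76 and 6.72 under PT and at 6.68, 6.93, 7.09 and 6.58 under PT-G, against 6.03 ± 0.09 in MED-CTL. Every digest array lay above the control arrays, and PT-G was higher in replicates 2 and 3 and lower in 1 and 4. The difference was 0.03 (-0.29 to 0.35), an interval of 0.819-fold to 1.27-fold. These are folds of signal without background correction. Both means of CXCL8 lay in the dimmest quartile of tested probes, which spans 6.43 to 8.32, so the interval need not bound the fold of its RNA.

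The inhibitors NFKBIA and TNFAIP3, both induced by NF-kB itself, differed by 0.15 (-0.36 to 0.66) and 0.13 (-0.25 to 0.52). The subunit RELA differed by -0.20 (-0.60 to 0.21). The chemokine CXCL1 was at 10.48 ± 0.39 under PT and 10.38 ± 0.78 under PT-G, and its interval of -1.03 to 0.84 left room for a 2-fold fall. Of the 26 genes 12 lay within 1.5-fold, and 24 did with the run as a block, all but CHUK and CXCL3. Of 26 genes 19 had a difference above 0, with medians of 0.14 over all arrays and 0.08 without PT-G replicate 3. IL6, TNF and CSF2 were not well above background on all 8 arrays.

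Interleukin-15 and the ligands of the NKG2D receptor mark stressed epithelium for intraepithelial lymphocytes. IL15 passed the background criterion on 6 of the 8 arrays and was not tested, nor were IL15RA, IL2RB, ULBP1, ULBP3 and RAET1E. The 5 genes that were tested all had a difference below 0, with a median of -0.17 that became 0.09 when arrays were weighted by their quality, and none passed a nominal p under 0.05. MICA, the best known of these ligands, was at 11.06, 11.13, 11.68 and 11.71 under PT and at 10.99, 11.09, 11.25 and 11.43 under PT-G. It was lower under PT-G in all 4 replicate numbers, by 0.04 to 0.43, while the groups overlapped. The difference was -0.20 (-0.79 to 0.38) for MICA and -0.16 (-0.62 to 0.30) for MICB. With the run as a block all 5 genes lay within 1.5-fold.

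Of the 12 measured genes for transglutaminases and antigen presentation, 9 lay within 1.5-fold and all 12 within 2-fold. TGM2, the transglutaminase that deamidates gliadin, differed by -0.07 (-0.49 to 0.34), and its other tested probe gave 0.09 (-0.92 to 1.09). B2M, the light chain of class I molecules, differed by -0.17 (-0.44 to 0.11). The class II genes HLA-DRA, HLA-DQA1 and HLA-DQB1 and their activator CIITA were not well above background on all 8 arrays. Of 19 genes of the interferon response, 9 lay within 1.5-fold and, with the run as a block, all 19.

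For apoptosis the bound was close. FAS passed the background criterion on 0 of the 8 arrays and FASLG was not tested either, while 21 of the 27 tested genes lay within 1.5-fold and 25 within 2-fold. The adaptor FADD differed by 0.07 (-0.28 to 0.43) and the gene of the Fas-activated kinase, FASTK, by 0.12 (-0.16 to 0.41). CASP8, the initiator caspase of this pathway, was loosely bounded at 0.19 (-0.95 to 1.32), with values from 10.47 to 11.93 under PT and from 10.08 to 12.06 under PT-G, and its other probes gave 0.48 (0.03 to 0.93) and 0.64 (-0.31 to 1.59). BBC3, which encodes the BH3 protein PUMA, had the lowest difference of all list members at -1.15 (-3.38 to 1.09). It was one of the probes far lower in PT-G replicate 3, with -4.39 in that replicate number and 0.82, -0.39 and -0.62 in replicates 1, 2 and 4.

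Oxidative stress genes were bounded within 1.5-fold for 17 of 23 and within 2-fold for all 23. HMOX1, haem oxygenase, was at 14.83 ± 0.14 under PT and 14.88 ± 0.21 under PT-G, a difference of 0.05 (-0.25 to 0.35), and the thioredoxin reductase TXNRD1 differed by 0.24 (-0.22 to 0.70). GCLM, the regulatory subunit of the enzyme that starts glutathione synthesis, was the gene of this list whose groups did not overlap. It was at 9.81, 9.36, 9.58 and 9.74 under PT and at 9.87, 9.94, 9.96 and 9.94 under PT-G. PT-G was higher in all 4 replicate numbers, by 0.06, 0.58, 0.38 and 0.19, and MED-CTL at 9.90 ± 0.07 was near the PT-G level. The difference was 0.30 (0.05 to 0.56), and 0.29 without PT-G replicate 3. With the run as a block the interval was 0.10 to 0.50. Its adjusted p was 1.00 in the limma fit.

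Of 28 heat shock and unfolded protein response genes 18 lay within 1.5-fold and all 28 within 2-fold. The chaperone HSPA6, which both digests raised from 6.94 ± 0.31, was at 8.47 ± 0.34 under PT and 8.31 ± 0.39 under PT-G, a difference of -0.16 (-0.62 to 0.31). The lumenal chaperone HSPA5 differed by 0.08 (-0.64 to 0.79), and the stress factor DDIT3 by -0.22 (-0.60 to 0.16).

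Junction genes were among the most loosely bounded, with 7 of 21 within 1.5-fold and 17 within 2-fold, and 0 at a nominal p under 0.05. OCLN, the strand protein occludin, differed by 0.22 (-0.62 to 1.05) and by -0.03 without PT-G replicate 3. TJP1, the scaffold ZO-1, differed by 0.23 (-0.23 to 0.68). CLDN4, a barrier-forming claudin, was at 12.92, 13.18, 13.06 and 12.77 under PT and at 13.23, 13.07, 11.99 and 12.32 under PT-G. Replicates 3 and 4 were lower under PT-G, by 1.07 and 0.45, and replicate 1 was higher. The difference was -0.33 (-0.95 to 0.30), and -0.11 without PT-G replicate 3. CXCR3, the chemokine receptor to which gliadin has been reported to bind, differed by -0.38 (-1.21 to 0.45). CLDN2 was not well above background on all 8 arrays. With the run as a block, all but CLDN4, CTNNB1 and CXCR3 lay within 1.5-fold.

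Of 22 endocytic and lysosomal genes 12 lay within 1.5-fold. HGS, the endosomal sorting protein also called HRS, differed by 0.23 (-0.20 to 0.65), while its other probes gave -0.04, -0.05 and 0.15. BECN1, which acts in autophagy and endosome maturation, was at 11.61, 11.60, 12.19 and 12.01 under PT and at 11.68, 11.77, 12.72 and 12.73 under PT-G. PT-G was higher in all 4 replicate numbers, with overlap between the groups. The difference was 0.38 (-0.25 to 1.00), and 0.12 to 0.64 with the run as a block, where it had a nominal p under 0.01. The other probes of BECN1 gave 0.05 and -0.05, so its probes disagreed. Of 20 actin genes 13 lay within 1.5-fold and all 20 within 2-fold.

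Peptide handling was measured in part. SLC15A1, the peptide transporter PEPT1, passed that criterion on 7 of the 8 arrays and was not tested. DPP4, a brush border peptidase that cuts after proline, differed by 0.05 (-0.45 to 0.55), and 7 of 15 peptidases and transporters lay within 1.5-fold. Of 13 protease-activated receptors, serpins and plasminogen activators, 6 lay within 1.5-fold. F2RL1, the receptor PAR2 that trypsin cleaves, differed by 0.10 (-0.54 to 0.74). The trypsinogen genes of this list, PRSS1, PRSS2 and PRSS3, are near-identical and can share probe signal, and they had differences of -0.29, -0.13 and -0.35 with intervals reaching beyond 1.5-fold.

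Ribosomal protein genes, taken as a list with no link to gliadin, were the most closely bounded, with 22 of 25 within 1.5-fold and a median of 0.03. For proliferation genes the counts were 16 of 24 within 1.5-fold and all 24 within 2-fold, and for enterocyte differentiation genes 9 of 19 and 17 of 19. None of these genes had a nominal p under 0.05. Over all lists fixed for the comparison no member had a nominal p under 0.01, and GCLM and ACTA2, the smooth muscle actin among the markers of other cell types, were the members with a nominal p under 0.05 by the probe read for the list. ACTA2 differed by -0.51 (-0.99 to -0.03). Its place as a marker of stromal cells in these cultures was not tested. Of the 15 such markers 9 were well above background on the 8 arrays, and VWF, PECAM1, CD3E and COL1A1 among them had differences of -0.02, 0.01, 0.05 and 0.05.

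**Figure D4:**
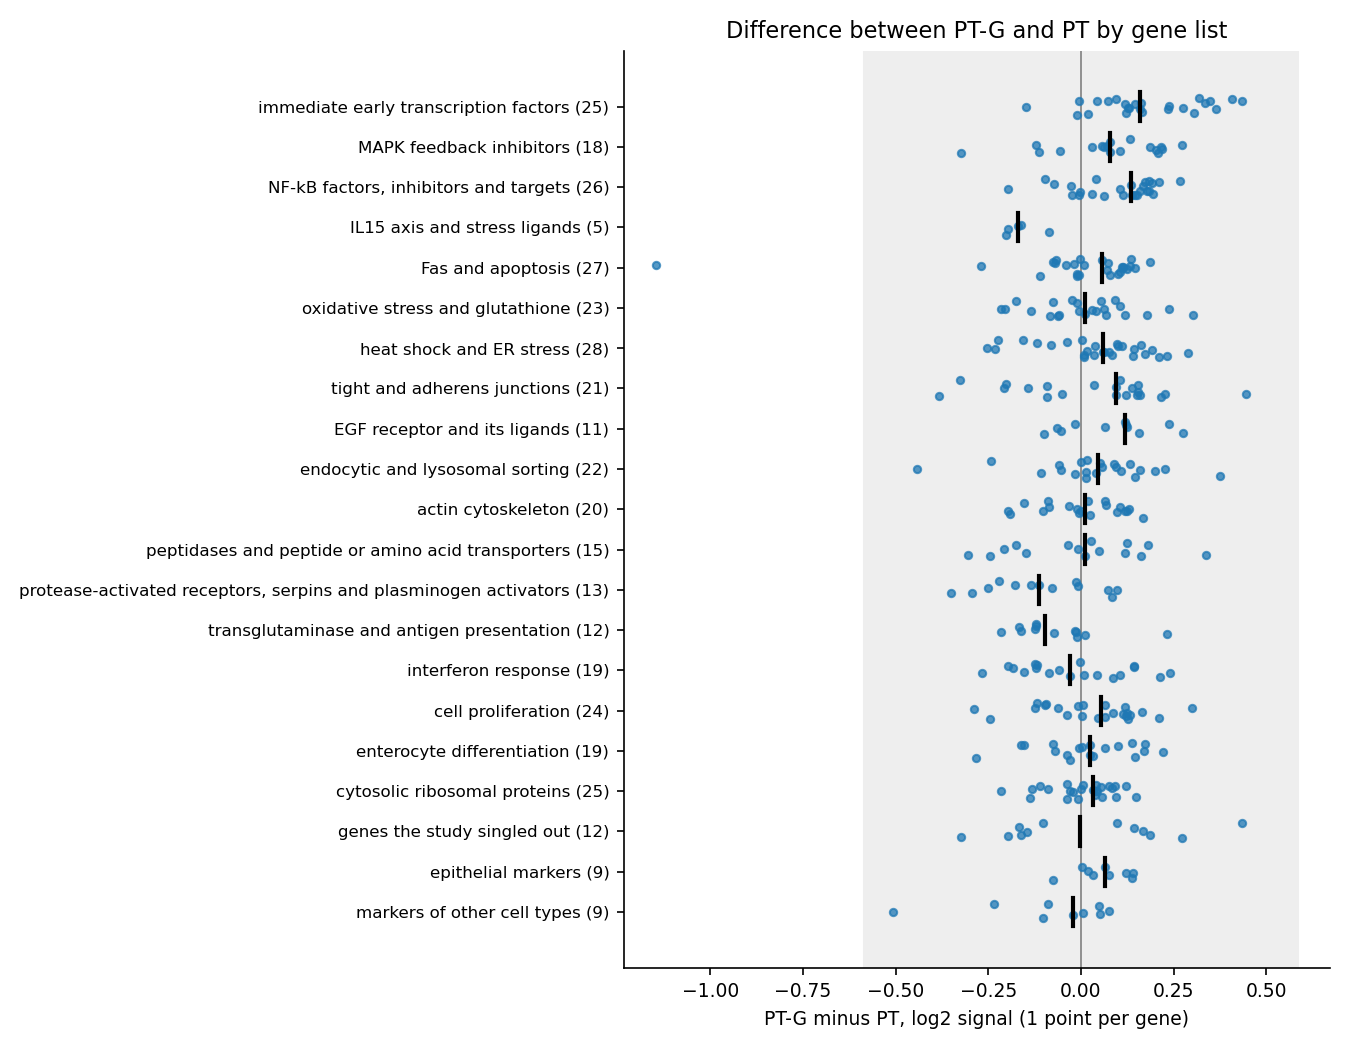
Each point is the difference PT-G minus PT in log2 signal of 1 gene (its brightest tested probe), the rows are gene lists with the number of genes tested in brackets, black bars are list medians, and shading marks 1.5-fold in either direction. Apart from BBC3 at -1.15 every gene lies within the shading, and list medians run from -0.17 to 0.16.

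The genes that the study singled out formed a further list. Quantitative PCR, with B2M as the reference, measured KLF4, SPRED1 and CEBPA for PT-G, and UQCC2 and RELA for the gliadin peptide p31-43. CD59, EFNB2, MYO6, ELK4 and PRNP were named for PT-G, and RALY for p31-43. All 12 members were tested. They were chosen by the study on these same samples and are not independent evidence. Their median difference was 0.00, 6 were above 0 and 6 below, 5 lay within 1.5-fold and 11 within 2-fold, all but KLF4. Besides KLF4 the widest apart were the RNA-binding protein RALY at -0.32 (-0.84 to 0.20) and SPRED1, an inhibitor of ERK activation, at 0.27 (-0.31 to 0.85). Without PT-G replicate 3 they were -0.12 and 0.06. ELK4, a serum response partner factor, was higher under PT-G in all 4 replicate numbers, by 0.02, 0.17, 0.19 and 0.36, with a difference of 0.19 (-0.11 to 0.49).

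**Figure D5:**
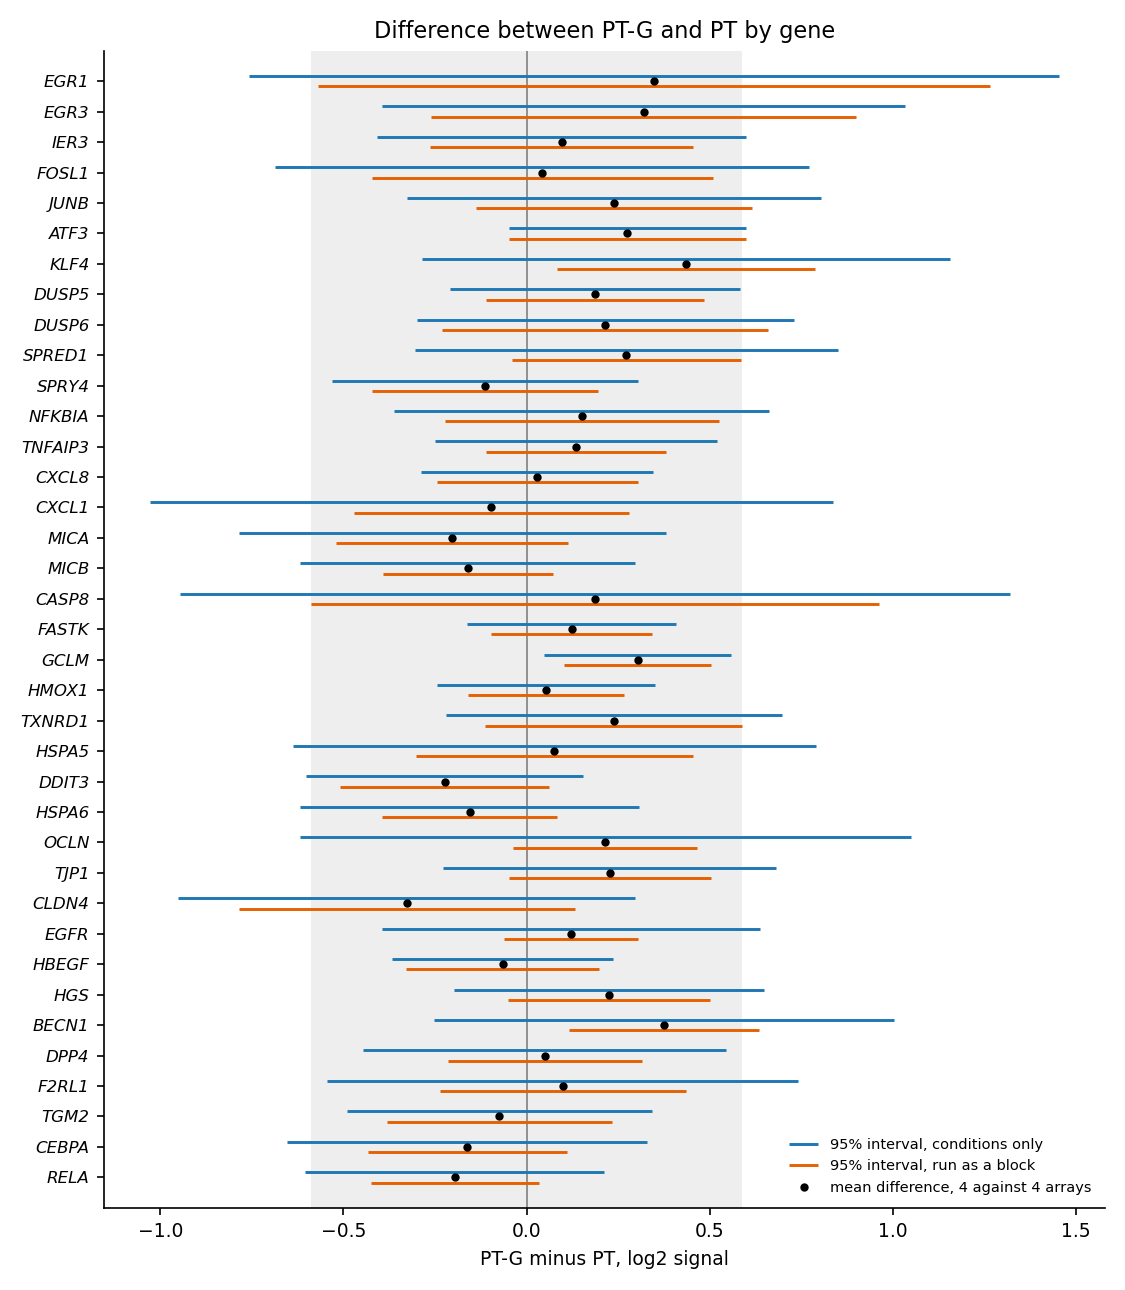
Points are mean differences PT-G minus PT in log2 signal for 37 genes of the functions above, with 95% intervals from the fit of conditions alone (upper, blue) and with the run as a block (lower, orange); shading marks 1.5-fold in either direction. The interval of GCLM, 0.05 to 0.56, is the one from the fit of conditions alone that leaves out 0.

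Of the 20 genes with the strongest rise or fall under both digests, ZSCAN26, a zinc finger gene that the array lists under an older name, was the one whose PT and PT-G arrays did not overlap. It stood at 9.73 ± 0.14 in MED-CTL, at 8.23, 7.95, 7.92 and 7.93 under PT and at 8.23, 8.25, 8.44 and 8.47 under PT-G. Both digests lowered it, with a lower mean under PT than under PT-G. In the limma fit without a block that difference had a nominal p of 0.014 and did not pass adjustment. The difference was 0.34 (0.08 to 0.60), and its second probe gave 0.23. In replicate 1 the PT and PT-G values were nearly equal. DIDO1 entered these 20 genes through a probe that fell by 1.18 under both digests, while its brightest probe, the one read here, differed from MED-CTL by 0.76. TXNIP, an inhibitor of thioredoxin, fell from 13.52 ± 0.28 to 12.39 ± 0.22 under PT and 12.14 ± 0.15 under PT-G. It was lower under PT-G in all 4 replicate numbers, by 0.08 to 0.46, and the difference was -0.26 (-0.58 to 0.06).

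HSD17B7, a reductase of cholesterol synthesis, was picked out after its values were seen. It was at 10.93, 11.02, 11.20 and 11.26 under PT and at 10.81, 10.86, 10.16 and 10.78 under PT-G, with MED-CTL at 10.74 ± 0.23. The groups did not overlap, PT-G was lower in all 4 replicate numbers, and the PT-G level was near that of the control. The difference was -0.45 (-0.86 to -0.04) and did not pass adjustment. Without PT-G replicate 3 it was -0.29 (-0.67 to 0.10), and a second probe gave -0.42 (-0.87 to 0.03), both intervals taking in 0. A pseudogene close in sequence to HSD17B7 exists, and its part in the signal was not tested.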

How the data were processed

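The deposited log2 values were made by the authors from the median spot intensity by quantile normalization over all spots without background correction, with limma named in the processing notes. Spot flags, run, slide and background intensity came from the deposited scanner files, whose other columns were used for alternatives. Rows of the deposited table follow spot order (rank correlation 1 with scanner intensity). Spots marked as outliers were dropped and spots of 1 probe averaged. A probe was tested if well above background on all 8 PT and PT-G arrays, with at least 3 unmarked arrays per group. On the PT and PT-G arrays, 27660 to 32439 of 43376 non-control spots were well above background. limma 3.58.1 (R 4.3.3) was fitted to 16 arrays and 4 conditions without a block, which the study's methods do not mention, with 95% intervals, a nominal p of 0.01 and Benjamini-Hochberg adjustment. The procedure was tried on simulated data with independent noise and no run, slide or outlying array, so that trial does not cover the structure of these arrays. In it, at an adjusted p under 0.05, 0 of 200 probes changed by 0.5 on the log2 scale were recovered. Of 200 changed by 1, 111 were. p-values and intervals rest on the spread between the 4 cultures within each condition, pooled over the 4 conditions and moderated across probes, all of 1 line. Without a block that spread includes differences between runs and slides. The number of arrays limits the precision.

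A list gene was read from its brightest tested probe. Named genes were 40 genes chosen by function, and the 10 highest and 10 lowest by moderated t of both digests against MED-CTL. The 12 genes the study singled out were added (UQCC2, RELA and RALY among them, which the study named for p31-43). The rule also took the 10 largest differences at a nominal p under 0.01 without overlap, of which there were none. Further genes in the observations, and HSD17B7, were chosen after their values were seen. Members and lists were chosen with earlier results of these data known. Current symbols came from a RefSeq table (GRCh38.p14) for 23434 of 25146 probes with an accession. Alternatives were background correction, scaling, filters, blocks, array weights and leaving out each array. No genome positions or probe sequences were used here.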

Additional observations from a re-analysis of the deposited data

Results flagged for a closer look

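In 5 of the 122 groups of 4 arrays of named genes that were examined, 1 array lay far from the other arrays of its group, and chance gives about 1 such group in 20. ZSCAN26 was highest on PT replicate 1, at 8.23 on the log2 scale, with the next array at 7.95. DIDO1 was highest on the same array, at 12.78 against 12.46, by a probe that moved the other way under the digests than the probe through which the gene was chosen. LOC439949 was highest on PT replicate 4, at 10.12 against 9.84. HGS was lowest on PT-G replicate 4, at 15.44 against 15.79. ZNF619 was highest on PT-G replicate 3, at 7.92 against 7.14. These 5 genes differed between PT-G and PT by 0.34, 0.10, 0.08, 0.23 and 0.31.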

How the results depend on the processing

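The count of 0 probes at an adjusted p under 0.05 held under all 27 alternatives. The count of 0 at a nominal p under 0.01 did not: it was 37 of 40982 with no filter on dim probes, 35 with a block for the run and likewise 35 for the slide, 27 with array weights, 2 with the scanner's processed signal and 1 with only the PT and PT-G arrays. It was 0 to 9 when 1 array was left out, with 9 without PT replicate 1 and 5 without PT-G replicate 1. A replicate block gave 13, and 7 with only the PT and PT-G groups. Deviations from the group means of same-numbered arrays correlated at 0.17, 0.80, 0.03 and 0.73, so the numbers are only a hint of pairing, and the labels do not say what they mark. Chosen after seeing the data, the scan date as a block gave 2, leaving out replicate 3 of both groups gave 1, and a replicate block on the 3 pairs sharing a slide gave 23. Probes bounded within 1.5-fold numbered 28904 with no filter on dim probes, 23044 with the slide as a block, 22346 with array weights and 23814 in the 3 pairs sharing a slide. With the scanner's processed signal they numbered 10578, fewer than in the fit of the deposited values. They numbered 10932 to 15098 when 1 array was left out. The median reach of the interval was 0.27 for the run block, 0.24 for the slide block, 0.27 with array weights and 0.25 in the 3 pairs. It was 0.45 to 0.48 with 1 array left out and 0.51 with the processed signal. The cause of these changes was not tested, beyond the fewer or more arrays and probes that an alternative takes. No gene named here was called in the fit without a block, so no call was lost or reversed. Of 61 named genes with a difference, the sign changed for 20 with array weights and for 11 without PT-G replicate 3, and of 22 lists the median changed sign for 7 and 11. In the fit without a block, differences under about 1.35-fold could not be told from 0 for a typical probe. With the same arrays that limit was 1.20-fold for the run block, 1.18-fold for the slide block and 1.20-fold with array weights. It was 1.42-fold with the processed signal.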

Other observations

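Cholesterol synthesis was examined after HSD17B7 had been seen, so it is a description with no test. Of 21 genes of synthesis, uptake and control, 14 had a difference PT-G minus PT below 0 and 7 above, with a median of -0.02 beside 0.01 over all probes. In replicates 1 to 4 the median was -0.15, 0.01, 0.23 and -0.14. Without PT-G replicate 3 the median was -0.12 and 2 of 21 were above 0. MVD, which makes isopentenyl diphosphate, was lower under PT-G in all 4 replicate numbers, by 0.15, 0.18, 0.76 and 0.45, with a difference of -0.38 (95% interval -0.93 to 0.17). INSIG1, which holds the sterol sensor in the endoplasmic reticulum, differed by -0.17 (-0.53 to 0.19). With the run as a block 17 of 21 lay within 1.5-fold.

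The 35 probes with a nominal p under 0.01 when the run was a block had absolute differences of 0.26 to 0.61 with a median of 0.34. They were found by that fit and their values are a description. The sign was the same in all 4 replicate numbers for 29 of them, and the groups did not overlap for 6. With the slide in place of the run as the block, 9 of the 35 were again under 0.01, and in the 3 pairs that share a slide, 2 were. ECT2, a regulator of cytokinesis, had the largest difference at 0.61 (-0.05 to 1.27), its other probes giving 0.33 and 0.21. TNFRSF19, a receptor of the TNF family, differed by 0.57 with 0.09 from its other probe, and the neurotrophin BDNF by 0.42 with 0.04. HPGD, which degrades prostaglandins, gave 0.33 and 0.24 from its probes, and MANEA, a mannosidase of the Golgi, 0.27, 0.26 and 0.21. ORAI3, a calcium channel subunit, and WDR27 were with HSD17B7 the 3 that were lower, at -0.33 and -0.43.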
